A study of Mus musculus with 15 samples.

Results

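Inhib_9 is a cluster of Vip neurons of the mouse prefrontal cortex (PFC). Its members are the cells that carry the name Inhib_9 in the deposited table of cells, 208 of the 35360 retained cells and of the 2153 cells of the 12 inhibitory clusters. At P60, 145 of 1191 inhibitory cells (12.2%) were members, and at P21 63 of 962 (6.55%). It was the most numerous of the clusters that Vip marks, ahead of Inhib_4 with 119 and Inhib_10 with 94 cells. The study profiled single cells of male C57BL/6N mice in 15 libraries, each from the pooled PFC of 2 mice, after papain dissociation and droplet capture. Of these, 12 were from mice of 8-10 weeks, called P60, after intravenous self-administration of cocaine or saline, with 2 libraries each of cocaine (libraries 1 and 4) and saline (2 and 3) in the maintenance phase, cocaine (6 and 8) and saline (5 and 7) at 48 h of withdrawal, and cocaine (9 and 10) and saline (11 and 12) at 15 days of withdrawal. Saline replaced cocaine in an otherwise equal procedure, so all P60 mice had food training and a jugular catheter. The paper dates the catheter to P60, before self-administration and withdrawal. By that account tissue was taken later than P60, and at an age that differed between time points. The other 3 libraries were from mice of 3 weeks, called P21, with no self-administration, so that age and that procedure cannot be told apart. To match P21 with P60 cells, the paper used a rank correlation to limit bias from different sequencing technologies. Such a technical difference between the ages cannot be told apart from age either. The methods name 4 P21 mice, fewer than 3 pools of 2 would need, so that the P21 libraries may share mice. A tissue tag in the labels names the nucleus accumbens, and the titles and source names give the PFC.

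Vip interneurons are GABAergic neurons that arise in the caudal ganglionic eminence (CGE). Many of them inhibit other interneurons, above all Sst cells, so that their firing releases pyramidal neurons from inhibition. They release peptides beside GABA, and cortical Vip cells are commonly split into those with calretinin (Calb2) and those with cholecystokinin (Cck).

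Each mRNA molecule was counted once by its unique molecular identifier (UMI). The retained cells of a library held 8375172 to 42892922 UMIs, and an Inhib_9 cell a median of 5303 UMIs at P60 and 3950 at P21. Levels are given as CPM, the UMIs of a gene summed over the Inhib_9 cells of a library, scaled to 1000000 UMIs of the genes kept. Libraries, not cells, are the replicates. Libraries with under 10 members were pooled with the other such library of their group, which gave 8 units at P60 and 3 at P21 with 12 to 30 cells each: libraries 1 and 4, libraries 2 and 3, and each of libraries 7 to 12 and the P21 libraries alone. Unit values are listed in the order of these libraries within a group. Libraries 5 and 6, with 7 and 1 members, were left out of units. In a unit, 3 UMIs were worth 17.1 to 49.3 CPM. Between 0 and 27 barcodes were shared by a pair of libraries, none of them of Inhib_9 cells.

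Vip, the vasoactive intestinal peptide gene that gives these neurons their name (chromosome 10, bases 4698927 to 4707323, minus strand, NCBIM37), reached 17734 CPM in the P60 cells of Inhib_9. Only 2 genes were higher there, the nuclear RNAs Malat1 and Meg3. In Inhib_4 it was at 19297 CPM, in Inhib_10 at 6094, in Inhib_11 at 3707 and in the other 8 clusters at 713 or less. Over the 4 saline units Vip was at 17755, 17985, 22184 and 12215 CPM, over the 4 cocaine units at 18403, 24917, 14008 and 12161, and over the P21 units at 19278, 26747 and 19564. The 3 groups overlapped, and each of the 11 units was above the other inhibitory cells of its libraries. The clusters were made from these same genes, so that levels of Inhib_9 against other clusters are given as descriptions, without a test.

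Other genes of CGE interneurons were present, and each was higher in at least 1 other cluster. Prox1, a transcription factor of CGE interneurons, was at 187 CPM, the RNA-editing gene Adarb2 at 173 and Htr3a, the ionotropic serotonin receptor of CGE interneurons, at 464. Prox1 reached 213 CPM in Inhib_4, Adarb2 267 in Inhib_12, where Vip was at 7.63, and Htr3a 1407 in Inhib_10. Gad1 and Gad2, which make GABA, had a UMI in 97.2% and 82.8% of P60 cells. The main markers of Sst and Pvalb neurons were low. Sst was at 11.1 CPM, Pvalb at 2.5, and Lhx6 and Sox6, factors of neurons from the medial ganglionic eminence, were without a UMI. Of the 25 genes of other interneuron classes, 20 had a UMI in P60 members, and 0 had their highest level in Inhib_9. They summed to 738 to 2571 CPM over the P60 units, most of it from Npy at 1022 CPM over all P60 cells, with the transcription regulator Id2 at 288 and Cplx3 at 111. In the cell table, 4 of the 208 cells were classed as excitatory, and they lay in libraries 8, 9, 12 and P21 library 3. The excitatory marker Slc17a7 had a UMI in 17.9% of Inhib_9 cells, against 95.7% of excitatory and 9.34% of endothelial cells, at a median of 4817, 12353 and 3871 UMIs of the genes kept per cell, and in 8.97%, 53.3% and 5.03% after thinning each cell to 2000 UMIs.

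**Figure D1:**
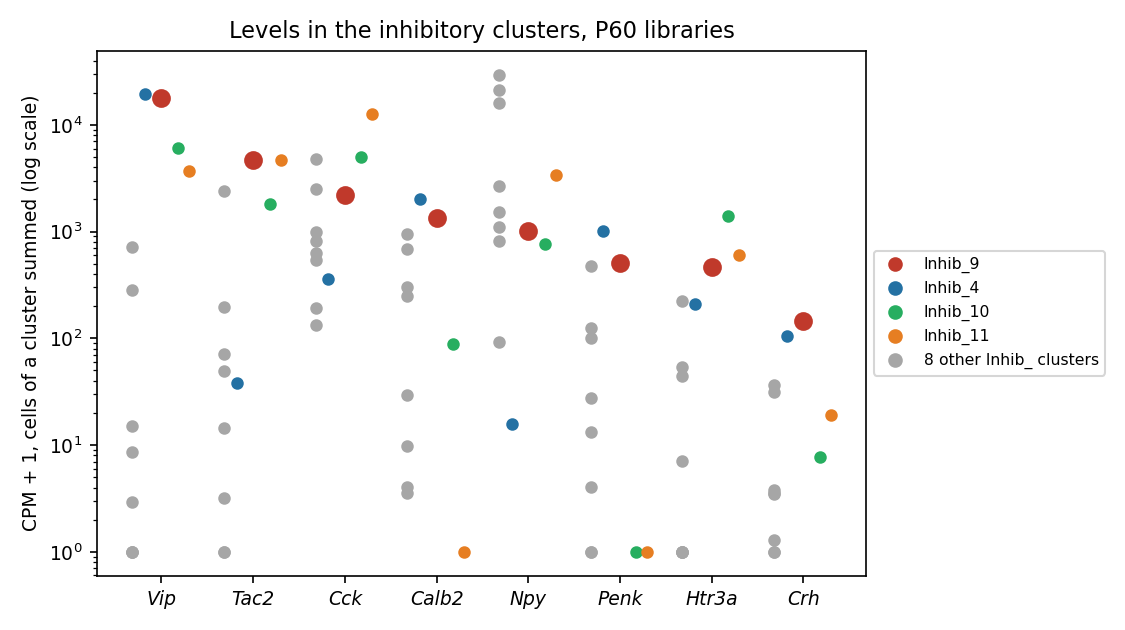
Levels of 8 genes (CPM + 1, log scale) in each of the 12 inhibitory clusters, cells of the P60 libraries summed, with 1 point per cluster. Inhib_9 (red) sits with Inhib_4 in Vip at 17734 and 19297 CPM and apart from it in Tac2 at 4652 and 37.2 CPM.

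Tac2, which encodes neurokinin B (chromosome 10, bases 127162448 to 127168823, plus strand), differed most between Inhib_9 and Inhib_4 among the peptides named here. Its level at P60 was 4652 CPM in Inhib_9, 37.2 in Inhib_4 and 1820 in Inhib_10, and Inhib_11 with 4708 CPM alone was higher. At P21 the gap to Inhib_4 was smaller, with 3764 CPM in Inhib_9, 848 in Inhib_4 and 820 in Inhib_10. Over the units Tac2 ranged from 3818 to 6878 in saline, 2542 to 5831 in cocaine and 2810 to 4461 at P21. A Tac2 UMI was found in 94.5% of P60 cells of Inhib_9 (95% Wilson interval 89.5 to 97.2%), in 8.11% of Inhib_4 (3.77 to 16.6%) and in 0.309% of endothelial cells, which should lack it. Thinned, these shares were 89.0%, 2.70% and 0.141%. Such intervals cover counting error only.

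In Cck and Cxcl14, a chemokine gene, Inhib_9 lay between the other Vip clusters. Cck had a UMI in 71.7% of Inhib_9, 28.4% of Inhib_4 and 96.8% of Inhib_10 cells, and 59.3%, 17.6% and 87.1% when thinned. Its share in endothelial cells was 13.5%. Cxcl14 was found in 68.3%, 16.2% and 100%, and in 49.0%, 12.2% and 74.2% when thinned. The endothelial share of Cxcl14 was 0.673%. Cck varied widely between units, from 154 to 4042 CPM in saline, 439 to 4995 in cocaine and 1134 to 2127 at P21.

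In other genes Inhib_9 lay below Inhib_4. Calb2 was at 1330 CPM in Inhib_9 and 2012 in Inhib_4, with a UMI in 59.3% and 70.3% of cells (51.7% and 64.9% thinned), in 9.68% of Inhib_10 and in 0.533% of endothelial cells. Penk, which encodes the enkephalins, was at 503 and 1001 CPM, and in 41.4% and 78.4% of cells (34.5% and 66.2% thinned), with 0.617% of endothelial cells. Pthlh, a parathyroid hormone-related peptide gene, was in 29.0% and 55.4% (17.9% and 29.7% thinned), with 1.91% of endothelial cells. No cell of the 62 of Inhib_10 had a Penk or Pthlh UMI, which allows a share of cells with a UMI of up to 5.83% (Wilson) and sets no limit on cells that express these genes at a low level. Slc5a7, the choline transporter of cholinergic cells, was found in 4.14% of Inhib_9 and 24.3% of Inhib_4 cells (2.76% and 12.2% thinned), with 0.196% of endothelial cells. The neuropeptide Y receptor Npy2r was found in 4.83% and 36.5%, and in 80.6% of Inhib_10 cells (0.690%, 16.2% and 41.9% thinned), with 0.0842% of endothelial cells. The thinned Inhib_9 share of Npy2r rests on 1 cell. The factor Pbx3 was in 4.14% and 35.1% of Inhib_9 and Inhib_4 cells (2.76% and 14.9% thinned). The Pbx3 share in endothelial cells was 4.91%, so that in Inhib_9 it was at background.

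**Figure D2:**
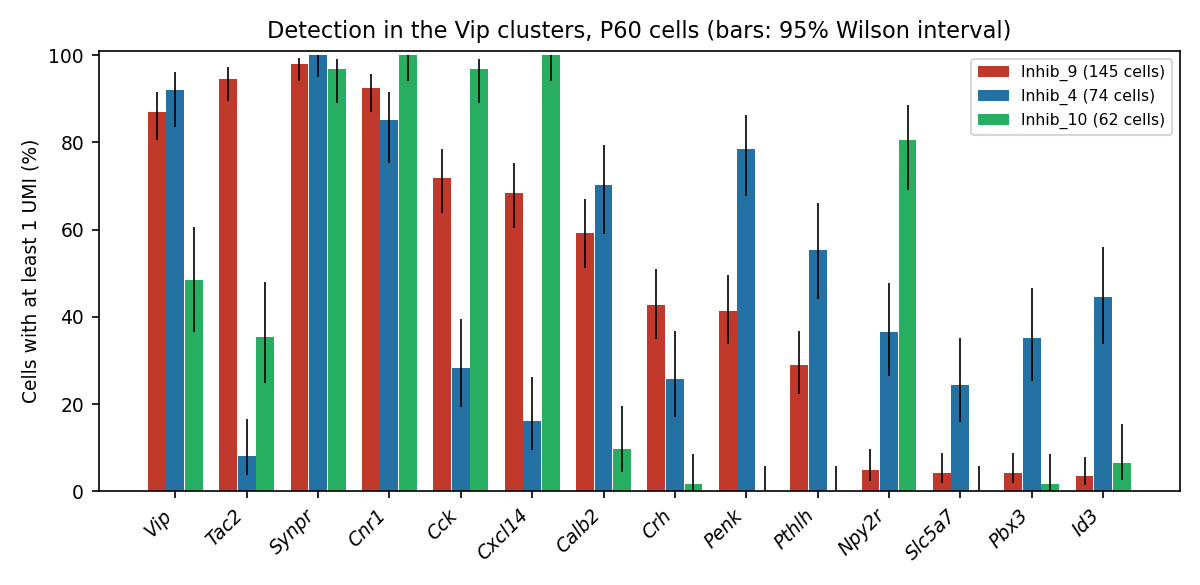
Share of P60 cells with at least 1 UMI (%) of 14 genes in Inhib_9 (145 cells), Inhib_4 (74) and Inhib_10 (62), with 95% Wilson intervals. Tac2 reaches 94.5% of Inhib_9 and 8.11% of Inhib_4 cells, and Penk 41.4% and 78.4%.

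Of 2832 genes with at least 50 UMIs in the P60 cells of Inhib_9, 152 (5.37%) were higher there than in any other inhibitory cluster, and the leads were small. The largest ratio to the next cluster was 2.29, for the receptor tyrosine phosphatase Ptprz1 at 130 CPM against 56.7 in Inhib_5. Rprm followed at 112 CPM (ratio 1.83), Lypd1, which binds nicotinic receptors, at 90.2 (1.62), the phosphatidate phosphatase gene Ppapdc1a at 76.6 (1.57) and Sntg1 at 80.4 (1.52). All 11 units exceeded the other inhibitory cells in each of these genes but Sntg1, which did so in 7. The genes were chosen on the P60 cells, and the P21 units had no part in that choice. The P21 cells were, however, assigned to clusters by their correlation with P60 clusters, so that their levels are no independent check. At P21, Ptprz1, Rprm and Lypd1, each at 154 CPM, were still highest in Inhib_9. Ppapdc1a (69.1 CPM against 69.2 in Inhib_2) and Sntg1 (36.6 against 68.6 in Inhib_4) were not.

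The other 10 leading genes had smaller ratios. Crh, which encodes corticotropin-releasing hormone, was at 145 CPM with 104 in Inhib_4 (1.39), and had a UMI in 42.8% of Inhib_9 cells (26.9% thinned) and 0.0561% of endothelial cells. Grpr, the receptor of gastrin-releasing peptide, was at 95.2 CPM with 71.9 in Inhib_4 (1.32). Synpr, a synaptic vesicle protein, was at 2532 CPM with 1834 in Inhib_4 (1.38), and Cbln2, a secreted synapse organizer, at 176 with 132 in Inhib_11 (1.33). The remaining leading genes, Pkib, Tipin, Lrrc24, Pdia6, Exosc9 and Commd2, had ratios of 1.37 to 1.25. Exosc9 and Tipin exceeded the other inhibitory cells in 8 units and Lrrc24 and Commd2 in 9. At P21, Crh, Synpr, Cbln2 and Pdia6 were still highest in Inhib_9, while Grpr, Pkib, Tipin, Lrrc24, Exosc9 and Commd2 were higher in another cluster.

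Over all 12985 genes with a UMI in its P60 cells, Inhib_9 was the highest cluster for 759 (5.85%). It was so for 7 of 31 Vip subtype genes (a list drawn up for such cells), among them the growth factor Igf1 at 347 CPM. It led in 7 of 60 neuromodulator receptors, including the adrenergic receptor Adra1b at 82.8 CPM, and in 3 of 23 neuropeptides. In the synaptic adhesion list it led in 3 of 26 genes, among them the contactin gene Cntn5 at 106 CPM. It led in 3 of 34 potassium channel genes, in 0 of 30 interneuron transcription factors and in 0 of 11 genes of GABA synthesis and transport. Scg5, a chaperone of the prohormone convertase PC2, was highest in Inhib_9 at 1320 CPM.

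The members were not uniform in Vip. A P60 cell held 0 to 521 Vip UMIs with a median of 82, and the middle 50% of cells lay between 7402 and 28329 CPM. In 19 cells, from 9 libraries, no Vip UMI was found, although these cells were the deeper ones with a median of 6524 UMIs against 5162 in the 126 cells with Vip. Of the 19, 17 had Tac2, 18 Gad1 and 13 Cck. They had less Tac2 as a group, 2793 CPM against 4989 in the cells with Vip. Crh was in 2 of the 19 (64.4 CPM, against 60 of 126 and 159 CPM in the cells with Vip) and Calb2 in 6. Their Npy level was 3461 CPM against 580, and Slc17a7 was in 8 of 19 cells against 18 of 126. Reln was in 7 of the 19 and in 11 of the 126. The 5 P21 cells without Vip had no UMI of Npy, against 2315 CPM in the 58 with Vip, and none of Slc17a7, which 5 of the 58 had. Reln was in 3 of the 5 and in 1 of the 58.

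Npy, which encodes neuropeptide Y and is more typical of other interneuron classes, came from few members. At P60 a UMI was found in 37 of 145 cells (25.5%, against 7.63% of endothelial cells), and the 5 cells with most held 60.2% of its 827 UMIs. At P21 the 5 highest cells held 75.8%. For comparison, the 5 highest cells held 13.8% of Vip and 12.3% of Tac2 UMIs at P60.

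By the calretinin and cholecystokinin genes, 55 P60 members had UMIs of both Calb2 and Cck, 31 of Calb2 only, 49 of Cck only and 10 of neither. Summed over libraries, cells with Calb2 had more Vip, at 21883 CPM with Cck and 20694 without, than the Cck only cells at 12898. Tac2 followed at 6168, 4939 and 3605 CPM. Penk was highest in Calb2 only cells, with 902 CPM against 484 in cells with both and 290 in Cck only cells. Cnr1, the cannabinoid receptor gene, had the reverse order, with 437, 722 and 1338 CPM. These classes rest on single UMIs, and the Cck only cells were deeper, with a median of 6426 UMIs against 4918 and 5071. The libraries differed in their share of each class, so the classes were also compared within the 5 P60 libraries that held at least 3 cells with Calb2 and 3 Cck only cells, with each library weighted equally. Vip was higher in the cells with Calb2 in 5 of 5 libraries, at 24844 ± 6373 CPM against 9177 ± 1454 (SD), and Tac2 in 5 of 5, at 6640 ± 942 against 3668 ± 1025. Penk was higher in 3 of 5 and Cnr1 in 1 of 5, so that the order of Penk varied between libraries. At P21 the counts of cells were 28, 16, 18 and 1, and the 2 libraries with enough cells differed in direction for Vip, with 25682 CPM in cells with Calb2 and 27208 in Cck only cells in P21 library 2, and 21960 and 10119 in P21 library 3.

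The share of Inhib_9 among inhibitory cells was asked of age and of cocaine. In the 6 saline libraries it was 9.72% at the lowest, 12.6% at the median and 26.3% at the highest, in the 6 cocaine libraries 3.23%, 10.9% and 23.5%, and in the P21 libraries 4.14%, 9.30% and 6.20%. All P21 libraries were below all saline libraries, while saline and cocaine overlapped. The difference between P21 (6.55 ± 2.60%, SD, n = 3) and saline (16.3 ± 7.31%, n = 6) was -9.80 percentage points, which did not pass the exact permutation test (two-sided p = 0.0714 over 84 splits, adjusted 0.0714 over both comparisons). The cocaine share (11.9 ± 6.78%, n = 6) was -4.48 points from saline, with an exact permutation p of 0.0648 over all regroupings within time points (two-sided, adjusted 0.0714). The smallest p these designs could give was 0.0119 and 0.00926.

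The denominators and libraries of few cells bear on these shares. As a share of all retained cells, P21 was 0.0675 points above saline (exact permutation p = 0.690), so that the direction turned. For Inhib_4, Inhib_9 and Inhib_10 together the P21 difference was -16.2 points (exact permutation p = 0.0714), with 20.8 to 52.6% of inhibitory cells in saline and 7.59 to 20.3% in P21 libraries. Without library 1 the cocaine difference was -6.81 points (exact permutation p = 0.0463) and without library 12 -5.80 (0.0185), while without library 2, 3 or 6 it was -2.48, -2.75 and -2.75 points. The maintenance libraries held 34 inhibitory cells (library 1), 19 (library 2), 28 (library 3) and 48 (library 4), of which 8, 5, 7 and 6 were members. At maintenance the shares were 26.3% and 25% in saline and 23.5% and 12.5% in cocaine, at 48 h 11.9% in both saline libraries and 3.23% and 9.21% in cocaine, without overlap, and at 15 days the means were 11.5% and 11.4%. Single time points were not tested, with 2 libraries a group.

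**Figure D3:**
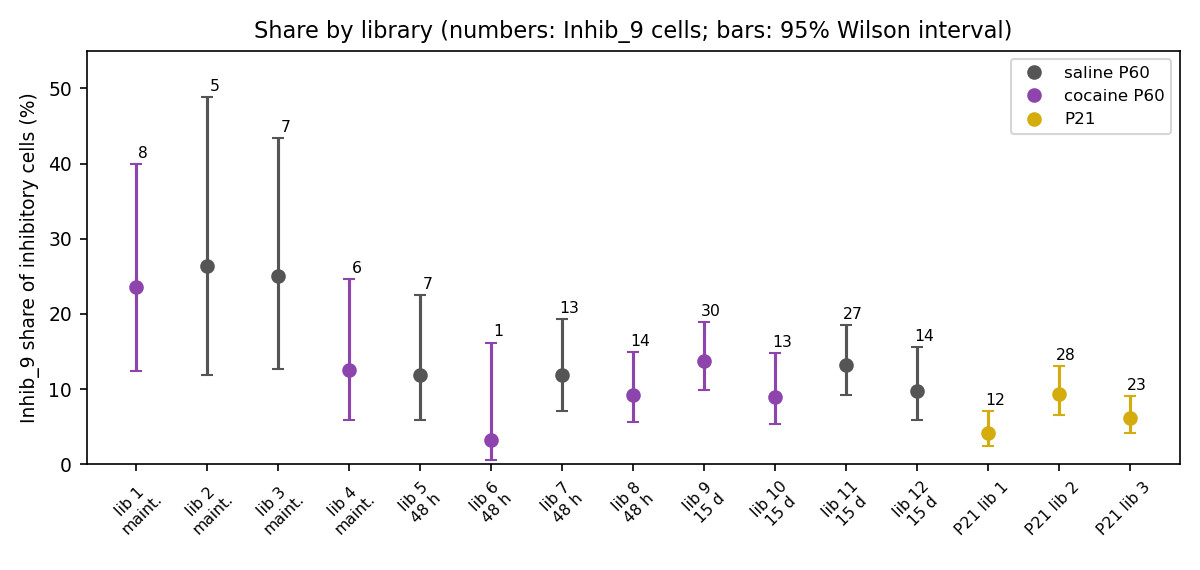
Share of Inhib_9 among the inhibitory cells of each of the 15 libraries (%), with 95% Wilson intervals and the number of Inhib_9 cells above each. The P21 libraries lie at 4.14 to 9.30%, and the intervals of the maintenance libraries with 5 to 8 members are the widest.

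Between P21 and the saline mice at P60, 6 axon growth genes of Inhib_9 fell, and the enzyme gene Ass1 and the cell death inhibitor gene Faim2 were among those that rose. The P21 cells had been given their cluster by how well they correlated with each P60 cluster, so that these changes are among cells chosen to resemble the P60 cluster. Of 1544 genes tested with edgeR's quasi-likelihood test in 3 P21 and 4 saline units, 52 (3.37%) passed an adjusted p of 0.05 and 1.5-fold, 19 higher (1.23%) and 33 lower (2.14%) at P60. The numbers below are log2 fold changes of P60 over P21 with their standard errors.

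Tspan13, a tetraspanin (chromosome 12, bases 36741144 to 36769087, minus strand), had the smallest p. It was at 165, 169, 187 and 153 CPM in the saline units and at 493, 541 and 566 at P21, and fell by 1.70 ± 0.23 (edgeR, adjusted p = 0.000318). The units of the 2 ages lay far apart. Cadm1, a synaptic cell adhesion gene, fell by 1.88 ± 0.32, from 296, 433 and 229 CPM to 68.9, 123, 74.8 and 115 (edgeR, adjusted p = 0.00269). Its paralog Cadm2 fell by 1.67 ± 0.35, with a mean of 473 CPM at P21 and 145 in saline. The gene 2310044H10Rik, a synonym of Emc10 in RefSeq, fell by 1.97 ± 0.30, from 345, 378 and 243 CPM to 82.7, 61.5, 89.8 and 102 (edgeR, adjusted p = 0.00129). Atxn7l3b (-1.91), the neuron navigator gene Nav1 (-1.82), the actin regulator Marcksl1 (-1.57) and the splicing gene Zcrb1 (-1.56) complete the 8 largest falls whose units did not overlap.

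Of the list of axon growth and immature neuron genes, 23 of 31 were tested, and 6 were called lower (2.14% of all genes) and 0 higher (1.23%). They were Marcksl1, the tubulin Tubb2b (-1.05), the actin-binding Tmsb10 (-0.77), the growth cone gene Gap43 (-0.75), the microtubule regulator Stmn2 (-0.70) and Dpysl2 (-0.68). The list's median was -0.41, against 0.00 over all genes tested. Gap43 and Tubb2b fell although their units overlapped. The cyclin Ccnd2, named after its values were seen, fell by 1.09 ± 0.23, from 641, 604 and 741 CPM to 289, 462, 352 and 192.

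Ass1, which makes argininosuccinate on the way to arginine (chromosome 2, bases 31325727 to 31376192, plus strand), rose most. It was at 49.3, 63.1 and 13.5 CPM at P21, near the level of 3 UMIs, and at 289, 246, 202 and 217 in saline units, a rise of 2.30 ± 0.40 (edgeR, adjusted p = 0.00347). Faim2, an inhibitor of Fas-mediated cell death, rose by 1.53 ± 0.26, from 378, 207 and 148 CPM to 841, 800, 636 and 601. Rab3c, a small GTPase of synaptic vesicles, rose by 1.23 ± 0.24, from 247, 324 and 283 to 551, 1077, 689 and 563. Units of the 2 ages did not overlap in these genes, which was a condition for naming them and held for 15.7% of all genes tested.

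The other rises among the 8 largest were Cplx3 (2.14), a complexin better known from other neurons, the synaptotagmin Syt5 (1.24), the cold-shock RNA-binding gene Rbm3 (1.19), the peptidyl-prolyl isomerase Ppid (1.19) and the tubulin Tuba4a (1.14). Cplx3 was at 40.4 CPM or less in the P21 units and at 179, 154, 187 and 89.5 in saline units. Of the heat shock and chaperone list, 1 of 9 tested genes was called higher, the small heat shock protein Cryab (0.86), beside 1.23% of all genes. Called or not, 8 of the 9 were higher at P60, with a median of 0.27 against 0.00 over all genes tested. All 20 tested genes of the mature synapse list and all 70 of the nuclear respiratory chain list stayed short of the threshold, with medians of -0.11 in both. The respiratory chain list is not complete. Ndufab1, a nuclear gene of a respiratory chain subunit that it lacks, named after its values were seen, fell by 1.91, with overlapping units.

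**Figure D4:**
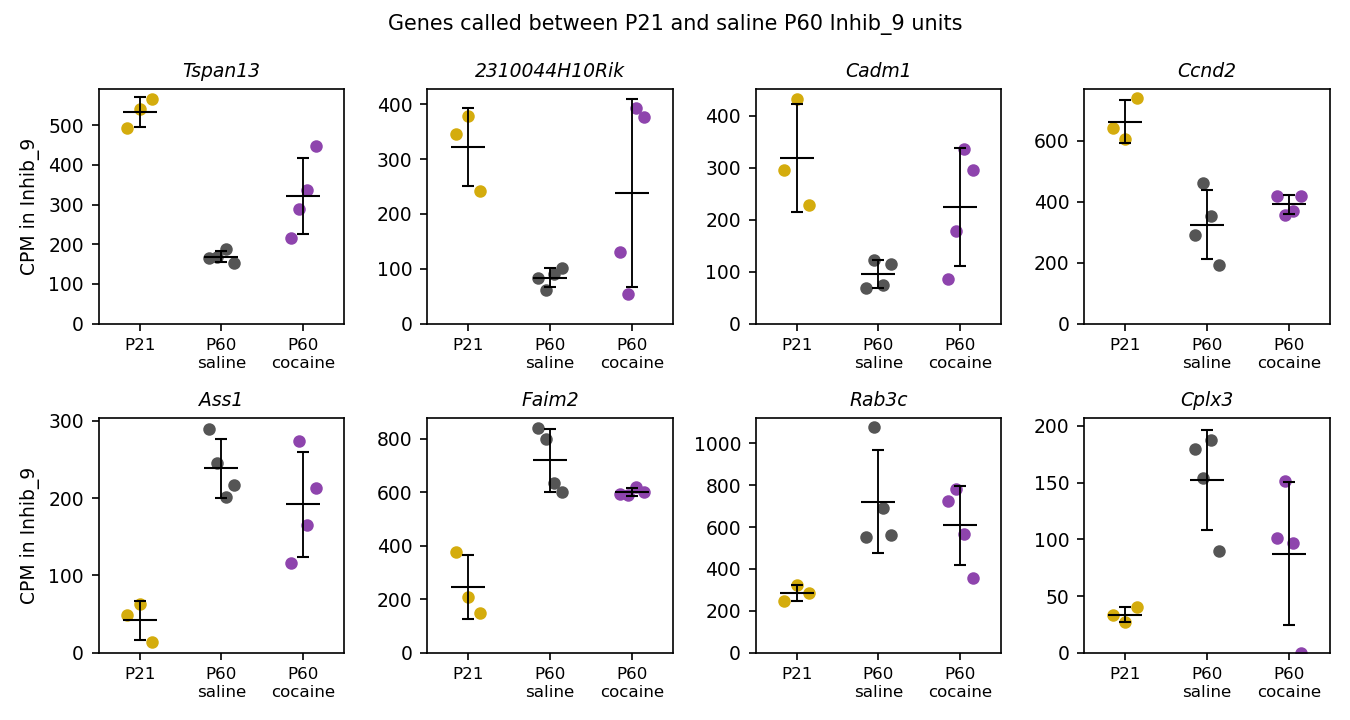
Levels of 8 genes in Inhib_9 (CPM) in each P21, saline P60 and cocaine P60 unit (points), with the mean and SD as black bars. Cocaine units were not in the age test; 2310044H10Rik is at 61.5 to 102 CPM in saline, 243 to 378 at P21 and 393 and 376 in libraries 9 and 10.

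The peptides that mark Inhib_9 did not pass the test. None of 10 tested neuropeptides, 9 tested Vip subtype genes or 9 tested CGE lineage genes was called. Crh had the largest difference, with 1183, 333 and 229 CPM at P21 and 165, 76.9, 120 and 64.0 in saline units, -2.39 ± 0.74 (edgeR, adjusted p = 0.173). Its units did not overlap, and the spread among the P21 units was large. Vip differed by -0.38 ± 0.19 (edgeR, adjusted p = 0.291), Tac2 by 0.38 ± 0.20 (0.326) and Cxcl14 by -0.75 ± 0.24 (0.0849). Calb2 at -0.58 ± 0.59 and Penk at -1.14 ± 0.72 varied widely between units. In simulated counts of this design with 200 genes changed, 54% of those with a log2 change of 1 and 89.5% of those with 2 were called. The rate with fewer genes changed was not simulated.

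The remaining lists gave few calls with age. Of other interneuron classes, 1 of 3 tested genes, Cplx3, was called higher, beside 1.23% of all genes. The counts tested, with 0 called in each, were 10 interneuron transcription factors, 9 granins and peptide processing genes, 7 GABA synthesis and transport genes, 5 synaptic adhesion genes, 4 ionotropic glutamate receptors, 4 sodium and calcium channels, 3 GABA-A receptor subunits, 2 neuromodulator receptors, 2 immediate early genes and 1 potassium channel. Of 507 genes in the lists, 318 were not tested for their low counts.

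Many of these genes differed in the same direction in the excitatory neurons and endothelial cells of the same libraries. In endothelial cells, Cadm1 was at a mean of 98.8 CPM in the P21 libraries and 39.2 in the 6 saline libraries. Atxn7l3b was at 302 and 122 CPM there, and 2310044H10Rik at 176 and 80.1. Of the 33 genes lower at P60, 32 reached 10 CPM in endothelial cells, and in 15 of them (46.9%) the P21 libraries all lay above the saline libraries, against 17.9% of all tested genes of that direction. In excitatory neurons it was 26 of 31 (83.9%), against 29.7%. Of the 19 genes higher at P60 it was 6 of 18 (33.3%) in endothelial cells, against 14.7%, and 14 of 19 (73.7%) in excitatory neurons, against 37.5%. Tspan13 overlapped in endothelial cells, with 861 to 1179 CPM at P21 and 785 to 1261 in saline, but in excitatory neurons all P21 libraries, at 524 to 819 CPM, lay above the saline libraries at 332 to 463. Cplx3 went the other way in excitatory neurons, at a mean of 22.1 CPM at P21 and 3.71 in saline.

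The median share of mitochondrial UMIs was also higher in the P21 units of Inhib_9, at 2.97 to 3.02%, than in the P60 units at 1.59 to 2.89%. The part of these values in the results was not tested. With all 8 P60 units as the adult group, 45 genes were called and 2310044H10Rik (-0.89), Cadm1 (-0.97), Atxn7l3b (-1.24), Zcrb1 (-0.79) and Nav1 (-1.56) lost their calls, as did Cplx3 (1.76), Ppid (1.01) and Tuba4a (1.32).

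The count rested on single libraries. It was 17 without libraries 2 and 3, 24 without library 7, 10 without library 11, 94 without library 12, 6 without P21 library 2 and 11 without P21 library 3, and DESeq2 called 21. Tspan13, 2310044H10Rik and Ass1 stayed called in all 7 of these fits with a unit left out, while Cadm1 and Faim2 lost their call without P21 library 2 (edgeR, adjusted p = 0.0722 and 0.0604) and Rab3c without P21 library 2 or 3 (0.0641 and 0.0544). Cplx3 lost its call in 2 of the 4 fits in which it was tested, and the other 9 named genes with the largest changes lost theirs in 3 to 6 of the 7.

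Whether age acted on Inhib_9 otherwise than on the other inhibitory neurons was tested as an interaction, with each unit as a block. Of 5572 genes, 11 were called (0.197%), 2 with a higher (0.0359%) and 9 with a lower change (0.162%) in Inhib_9. In simulated counts of this design with 200 genes changed, 11% of those with a log2 change of 1 and 56.5% of those with 2 were called. The 3 with the smallest p, Pnoc, Caln1 and Rgs10, had higher means at P60 than at P21 in the other inhibitory cells and lower ones in Inhib_9. Pnoc, which encodes prepronociceptin (chromosome 14, bases 66019510 to 66044046, minus strand), was at 431 to 657 CPM at P21 and 477 to 588 in saline units of Inhib_9, and at a mean of 243 and 631 in the other cells, a difference of -1.52 ± 0.21 (edgeR, adjusted p = 4.78e-06). The calcium-binding Caln1 was at 295 and 190 CPM in Inhib_9 and at 54.4 and 172 in the others (-2.34 ± 0.33). Rgs10, a regulator of G-protein signalling, was at 711 and 508, and at 311 and 697 (-1.70 ± 0.23).

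The factor Zbtb20 fell in Inhib_9, from 411 to 188 CPM, and was at 95.1 and 121 in the other cells (-1.53 ± 0.32). Cxcl14 was at 638 and 391 CPM in Inhib_9 and at 105 and 171 in the others (-1.30 ± 0.28), and Gad1 at 1112 and 1143, and at 919 and 1546 (-0.75 ± 0.17). Sez6 (-1.87), 2900055J20Rik (-1.02) and Lin7a (-3.02), the last at 76.3 and 12.4 CPM and under the worth of 3 UMIs in every saline unit, completed the lower ones. In the other direction, the vesicle GTPase Rab3b was at 132 and 169 CPM in Inhib_9 and at 684 and 306 in the others (1.48 ± 0.31), and the neuronal vesicle gene Nrsn1 at 391 and 521, and at 722 and 448 (1.08 ± 0.23). By list, 1 of 16 tested neuropeptides (Pnoc), 1 of 13 CGE lineage genes (Cxcl14), 1 of 10 GABA genes (Gad1) and 1 of 25 mature synapse genes (Rab3b) were called, beside 0.197% of all genes tested.

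**Figure D5:**
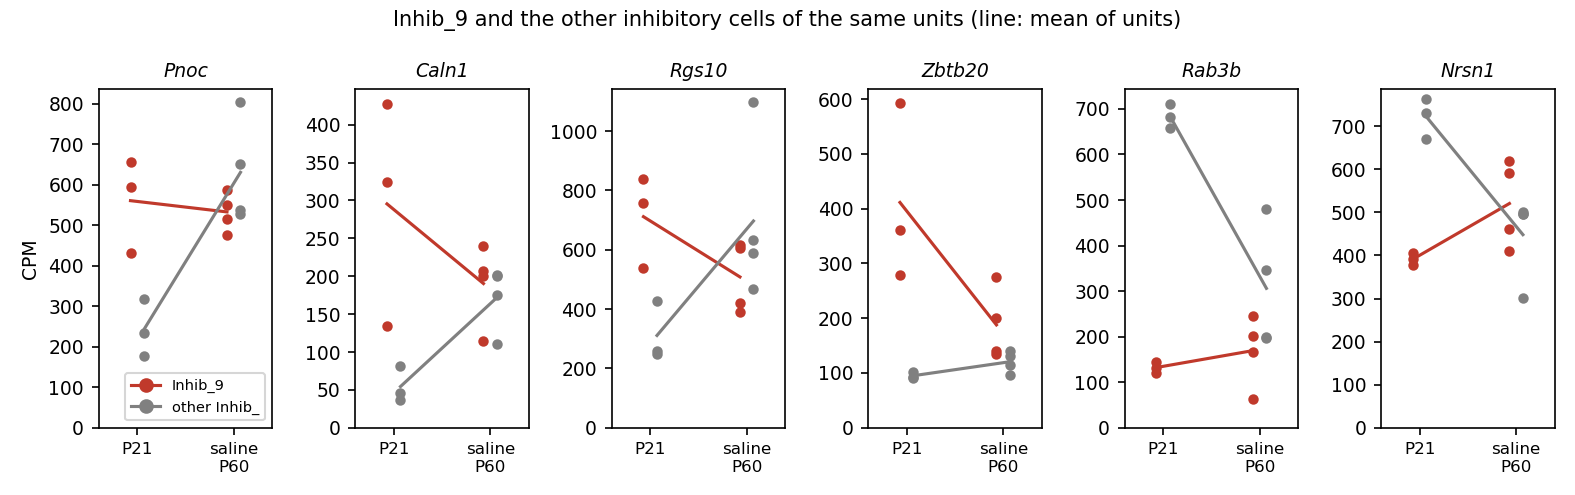
Levels (CPM) of 6 genes called in the interaction, in Inhib_9 (red) and in the other inhibitory cells (grey) of the same 3 P21 and 4 saline P60 units, with lines between the means. Pnoc goes from a mean of 561 to 533 CPM in Inhib_9 and from 243 to 631 in the other cells.

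The makeup of the other inhibitory cells differed between ages. Inhib_7, a cluster with much Npy, made up 40.9% of them in saline P60 units and 8.45% at P21, and Inhib_2 8.90% and 37.9%. The part of this difference was not tested. Against Inhib_4 and Inhib_10 alone, a comparison chosen after seeing the data, 4 genes were called, of which 1 (Zbtb20, -1.80, edgeR, adjusted p = 0.00594) was among the 11. No Vip UMI was found in 32 of 62 P60 and 19 of 32 P21 cells of Inhib_10. Inhib_11, with Vip at 3707 CPM at P60 and 10067 at P21, was not part of this comparison. Against Inhib_4 and Inhib_10 the difference was -0.64 ± 0.40 for Pnoc (edgeR, adjusted p = 0.997), -0.29 ± 0.48 for Caln1 (0.999) and -0.52 ± 0.25 for Rgs10 (0.961). None of these was called, and each was less than 0.5 of its value against all other inhibitory cells. Cxcl14 (-0.23), Sez6 (-0.41), Rab3b (0.67) and Nrsn1 (0.77) were not called there either. Against all other inhibitory cells, Pnoc, Caln1 and Rgs10 stayed called with each unit left out in turn. Of the 7 such fits, Zbtb20 kept its call in 5, Rab3b and 2900055J20Rik in 4, Cxcl14 in 3, Nrsn1 and Sez6 in 2 and Lin7a in 1. The count was 22 without libraries 2 and 3, 17 without P21 library 1, 5 without library 11, 4 without P21 library 2 and 3 without P21 library 3.

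Cocaine against saline at P60 was tested over 8 units with time point as a factor. In Inhib_9 0 of 1840 genes were called by edgeR (0%) and 0 by DESeq2, and 96 (5.22%) had an unadjusted p under 0.05. Vip was at a mean of 17372 CPM in cocaine and 17535 in saline units (-0.06 ± 0.20), Tac2 at 4285 and 4890 (-0.20 ± 0.28), Calb2 at 1364 and 1457 (-0.14 ± 0.33) and Crh at 164 and 107 (0.70 ± 0.33, edgeR, adjusted p = 0.95). All of the 11 tested neuropeptides and 70 tested respiratory chain genes were short of the threshold, with medians of -0.06 and 0.01 against 0.00 over all genes. In simulated counts of this design with 200 genes changed, 62% of those with a log2 change of 1 and 90.5% of those with 2 were called. The rate with fewer genes changed was not simulated.

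The 3 genes with the smallest p were 2310044H10Rik (1.59 ± 0.31, edgeR, adjusted p = 0.111), Cadm1 (1.37 ± 0.30, 0.175) and the mitochondrial phosphate carrier Slc25a3 (0.97 ± 0.22, 0.175). They were high in libraries 9 and 10, both cocaine at 15 days. For 2310044H10Rik these held 393 and 376 CPM, the other cocaine units 130 and 54.9, and the saline units 61.5 to 102. Cocaine and saline overlapped in all of these genes. Leaving out libraries 1 and 4 or libraries 2 and 3 gave 4 calls, and leaving out library 12 gave 2.

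At 15 days of withdrawal, with 2 units a group in a fit over all 8 P60 units, 7 of 2254 genes (0.311%) were called, 6 higher (0.266%) and 1 lower (0.0444%) in cocaine, and the 2 groups did not overlap in 38.3% of all genes tested. Lingo1, an inhibitor of axon growth and myelination, was at 148 and 305 CPM in cocaine and 29.9 and 12.8 in saline, near or under the worth of 3 UMIs (3.15 ± 0.64, edgeR, adjusted p = 0.0468). 2310044H10Rik was at 393 and 376 against 89.8 and 102 (2.02 ± 0.32, 0.0177), and Cadm1 at 336 and 295 against 74.8 and 115 (1.81 ± 0.34, 0.0457). Mrfap1 (1.59), the clathrin light chain Clta (1.48) and the membrane protein gene Itm2b (1.14) were the others higher, and Cryab was lower, at 290 and 193 against 621 and 614 (-1.29 ± 0.26, 0.0468). Fos, the activity-induced factor, was at 313 and 305 against 659 and 640 CPM and did not pass (-1.06 ± 0.24, edgeR, adjusted p = 0.104).

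Other cells of the same libraries showed several of these differences. In the other inhibitory cells of libraries 9 and 10, 2310044H10Rik was at a mean of 402 CPM against 165 in libraries 11 and 12, Clta at 579 against 224, Mrfap1 at 664 against 368 and Itm2b at 1157 against 752, while Lingo1 was at 65.9 and 70.5 and Cryab at 482 and 558. The saline libraries 11 and 12 differed from each other in these cells, with 92.2 and 238 CPM of 2310044H10Rik and 132 and 315 of Clta. In endothelial cells of the same libraries, all 6 genes higher in cocaine lay above library 11 and library 12, against 23.1% of all tested genes of that direction. The age test used the same saline units, and P21 units of Inhib_9 held 322 CPM of 2310044H10Rik and 428 of Clta on average. In the 15 days comparison the summed oligodendrocyte markers were at 262 and 371 CPM in the saline units and at 74.0 and 61.0 in the cocaine units of Inhib_9, and excitatory markers at 254 and 269 against 512 and 559, and their part in the result was not tested.

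These calls were lost in several fits. Without the cells classed as excitatory, 1 each in libraries 8, 9 and 12, an alternative chosen after seeing the data, 0 were called by edgeR, while the log2 differences changed little, to 2.00 for 2310044H10Rik (edgeR, adjusted p = 0.0589), 3.09 for Lingo1 (0.157), 1.75 for Cadm1 (0.114) and -1.17 for Cryab (0.215). The count was 1 without libraries 1 and 4, 1 without library 8, 1 without library 9, 0 without library 10, 17 without library 11 and 85 without library 12, and DESeq2 called 1. Each maintenance and 48 h group held 1 unit, so the spread between units came from libraries 9 to 12 alone, with 2 residual degrees of freedom. Leaving out 1 of these 4 leaves a lone unit in its group, and the spread then rests on the other pair alone.

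Markers of other cell types were present at unequal levels. Over the 11 units, the 7 astrocyte markers summed to 277 to 1392 CPM with the highest in library 11, the 8 oligodendrocyte lineage markers to 55.1 to 371, the 7 excitatory markers to 144 to 559, the 7 endothelial markers to 0 to 131 and the 7 microglia markers to 0 to 56.9. Of the astrocyte sum over all P60 cells, 358 CPM were of Aldoc and 251 of Slc1a2, while Gfap had no UMI and Aqp4, Gja1 and Aldh1l1 were at 9.89 CPM or less. Library 11 was a saline unit of all the tests across genes, and the part of its astrocyte markers in them was not tested. Of the 7 microglia markers, 5 had a UMI at P60, each at 9.89 CPM or less, and Csf1r and Cx3cr1 had none. With 3 and 2 UMIs, P2ry12 and Tmem119 were the 2 of them that were highest in Inhib_9 among the inhibitory clusters.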

How the data were processed

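PFC tissue of 15 libraries was profiled with a droplet method that counts UMIs. The authors deposited tables of UMI counts per gene and cell with a table of cells. By the paper and the labels they aligned the reads with Cell Ranger to mm 9 and clustered with Seurat 2.1.0. They removed cells with few genes, cells with many mitochondrial UMIs and likely doublets (the highest gene counts and manual review), and assigned P21 cells by correlation with P60 clusters. No further doublet caller was run here. The paper and the labels differ in the Cell Ranger version, and the number of P21 mice in the paper and of P21 libraries also differ.

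Of the 26145 genes listed, 25989 were kept: 143 that encode ribosomal proteins and 13 of the mitochondrial genome were set aside. They took 8.50 to 11.1% of UMIs in a unit. Cells were summed per library, and libraries with under 10 Inhib_9 cells were pooled within their group, or left out (8 cells). Sums were tested with edgeR 4.0.16 (TMM scaling, filterByExpr, quasi-likelihood F-test, limma 3.58.1, R 4.3.3). A gene was called at a Benjamini-Hochberg adjusted p under 0.05 and over 1.5-fold. Shares were tested by exact permutation (scipy 1.17.1) and intervals are 95% Wilson. DESeq2 1.42.0, other size factors, other minima of cells, no filter and leaving out each unit were alternatives. The scripts were tested on simulated data. Nothing in the labels says which mice gave which library beyond the pool of 2, so the spread may be partly technical, and libraries with under 10 cells make units coarse.

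Members and the 23 gene lists were chosen with earlier results of these data known. The genes named are the list genes that a count or description turns on, the 15 with the largest ratio over the next inhibitory cluster (at least 50 UMIs), and the 8 largest rises and 8 largest falls among called genes with units that do not overlap (the 3 smallest p where under 3 were called). Of the genes the study names for inhibitory clusters, Vip, Sst, Pvalb, Reln and Pbx3 are given. Positions are from GENCODE vM1 on NCBIM37.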

Additional observations from a re-analysis of the deposited data

Results flagged for a closer look

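A single unit stood far from the others of its group in 3 of 80 groups of Inhib_9 levels, and chance alone flags about 1 in 20. Library 12, saline at 15 days, had 4042 CPM of Cck where the lowest saline unit had 154, and 857 CPM of 2900055J20Rik where the lowest had 524. Library 8, cocaine at 48 h, had 2676 CPM of Calb2 where the lowest cocaine unit had 838.

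The change with age in Inhib_9 differed from that in the other inhibitory neurons by edgeR's interaction test for 11 genes. The log2 difference was -1.52 for Pnoc, -2.34 for Caln1, -1.70 for Rgs10, -1.02 for 2900055J20Rik, 1.48 for Rab3b, -1.53 for Zbtb20, 1.08 for Nrsn1, -1.30 for Cxcl14, -0.75 for Gad1, -1.87 for Sez6 and -3.02 for Lin7a. The makeup of the other inhibitory cells differed between ages, with Inhib_7 at 8.45% of them at P21 and 40.9% in saline P60 units. The part of this in the differences was not tested. Against Inhib_4 and Inhib_10 alone, Zbtb20 was the only gene of these still called.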

How the results depend on the processing

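The count of genes called between P21 and saline P60 in Inhib_9 was 52, 21 with DESeq2 (17 of them shared), 17 with only libraries of at least 10 cells, 45 to 67 under the other 7 alternatives, and 6 to 94 with 1 unit left out. For cocaine at P60 it was 0, 8 with no filter on low counts, 2 with only libraries of at least 10 cells, and 0 to 4 with 1 unit left out. At 15 days it was 7, 1 with DESeq2, 1 with DESeq2 size factors in edgeR, 34 with no filter, 16 with every library of at least 5 cells, 0 without the cells classed as excitatory, and 0 to 85 with 1 unit left out. For the interaction it was 11, 4 with DESeq2, 22 with only libraries of at least 10 cells, 7 with every library of at least 5 cells, 4 against Inhib_4 and Inhib_10, and 3 to 22 with 1 unit left out. 2900055J20Rik turned to 0.0552 against Inhib_4 and Inhib_10. The share of Inhib_9 differed by -6.81 to -2.48 points between cocaine and saline and by -11.2 to -7.80 between P21 and saline with 1 library left out, and the latter turned to 0.0675 points over all retained cells. The cocaine difference passed 0.05 without library 1 (-6.81 points) or library 12 (-5.80). The cause of these changes was not tested. Vip stayed between 17453 and 19596 CPM. The alternatives without cells classed as excitatory and against Inhib_4 and Inhib_10 were chosen after seeing the data. No paired analysis was possible because the labels number no animals or batches across groups. Depth limits the list genes, 318 of 507 of which were not tested with age.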
